A study of Mus musculus with 24 samples.

Results

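The genes described are the mouse members of 8 families of developmental homeobox transcription factors that lie outside the Hox clusters: Pax, Lhx, Nkx, Dlx, Irx, Msx, Meis and the Six-family. They were chosen by symbol alone, as every entry of the count table whose symbol is a family name followed by its number. The rule found 54 genes among 23284 deposited symbols: 13 Nkx, 9 Pax, 8 Lhx, 6 Dlx, 6 Irx, 3 Meis, 3 Msx and 6 Six-family genes.

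RNA was measured by poly(A)-selected sequencing in mouse embryonic stem cells of the C57BL/6 strain and in embryoid bodies, the aggregates in which such cells begin to differentiate. The 4 genotypes, derived from a conditional Eed line, were KO+N-KR and KO+WT, which are the knockout carrying the EED form labelled N-KR or wild-type EED, the knockout itself (KO), and the same conditional line without tamoxifen (f/f). N-KR is not spelled out in the labels, and per the labels' protocols the knockout was induced with 800 nM 4-hydroxytamoxifen in cells kept with serum and LIF on fibroblast feeder layers. Each genotype was sampled in the state labelled 3i, in embryoid bodies of day 1 (EB day 1) and in embryoid bodies of day 2 (EB day 2). Each of these 12 groups has 2 libraries. KO+N-KR, KO+WT and KO share the deletion and the tamoxifen, which f/f lacks, so genotype, tamoxifen and the history of each line cannot be told apart against f/f. Each genotype appears in the labels as a single line with no clone or animal named.

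EED is the subunit of Polycomb repressive complex 2 (PRC2) that binds trimethylated lysine 27 of histone H3 and is needed for the complex to place that mark. In embryonic stem cells the genes of these homeobox families are textbook Polycomb targets: they specify eye, heart, kidney, limb, muscle and neural tube later in the embryo and are held at low levels, mostly from CpG-rich promoters. Pax and Six-family factors pattern eye, ear, kidney and muscle, Nkx and Irx factors divide the neural tube and the heart, Dlx and Msx factors act in limb, face and placenta, and Meis factors bind DNA together with Hox and Pbx proteins.

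Promoter sequence is shown for the 6 genes that were at least 2-fold higher in KO than in f/f at EB day 2 and that the RefSeq promoter table holds, since these are the members on which the knockout comparison turns. Each sequence is the 250 bases before the transcription start, from RefSeq for build GRCm38.p6, written 5′ to 3′ on the gene's strand, with each CpG in capitals. All 6 lie on the minus strand: Irx3 at chr8:91801655-91801904, Meis1 at chr11:19018970-19019219, Meis2 at chr2:116064620-116064869, Msx2 at chr13:53472781-53473030, Nkx2-5 at chr17:26841566-26841815 and Nkx2-9 at chr12:56613285-56613534. Dlx3 is not in the table.
Irx3: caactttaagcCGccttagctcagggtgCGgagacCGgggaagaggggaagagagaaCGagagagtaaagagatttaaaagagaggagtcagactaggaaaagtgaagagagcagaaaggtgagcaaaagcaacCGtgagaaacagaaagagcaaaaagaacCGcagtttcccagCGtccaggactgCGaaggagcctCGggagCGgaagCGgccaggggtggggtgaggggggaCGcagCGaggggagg
Meis1: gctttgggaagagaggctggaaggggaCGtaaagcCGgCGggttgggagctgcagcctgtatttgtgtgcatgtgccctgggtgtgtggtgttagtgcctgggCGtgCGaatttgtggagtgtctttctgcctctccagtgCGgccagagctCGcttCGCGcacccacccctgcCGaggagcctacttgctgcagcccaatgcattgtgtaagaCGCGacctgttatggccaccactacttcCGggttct
Meis2: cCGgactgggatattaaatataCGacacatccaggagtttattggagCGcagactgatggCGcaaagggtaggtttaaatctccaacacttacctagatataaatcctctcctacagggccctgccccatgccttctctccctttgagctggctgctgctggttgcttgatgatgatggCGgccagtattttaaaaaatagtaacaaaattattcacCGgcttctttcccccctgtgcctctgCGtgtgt
Msx2: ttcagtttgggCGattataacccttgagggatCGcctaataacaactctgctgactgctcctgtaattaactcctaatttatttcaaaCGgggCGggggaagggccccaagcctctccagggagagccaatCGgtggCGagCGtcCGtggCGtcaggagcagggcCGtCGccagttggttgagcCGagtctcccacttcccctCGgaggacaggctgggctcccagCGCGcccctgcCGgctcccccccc
Nkx2-5: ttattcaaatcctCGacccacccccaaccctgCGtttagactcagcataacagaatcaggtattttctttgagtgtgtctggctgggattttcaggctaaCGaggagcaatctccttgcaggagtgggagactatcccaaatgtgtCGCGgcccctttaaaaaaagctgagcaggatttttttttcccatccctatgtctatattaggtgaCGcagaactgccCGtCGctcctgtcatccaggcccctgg
Nkx2-9: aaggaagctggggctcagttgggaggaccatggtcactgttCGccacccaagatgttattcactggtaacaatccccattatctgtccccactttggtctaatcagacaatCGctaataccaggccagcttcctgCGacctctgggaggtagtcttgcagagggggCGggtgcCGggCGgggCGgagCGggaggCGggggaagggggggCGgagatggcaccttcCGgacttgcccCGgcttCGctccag

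The 6 windows hold 16 CpG sites at Msx2, 13 each at Irx3, Meis1 and Nkx2-9, 8 at Nkx2-5 and 7 at Meis2. Their GC content was 61.6% at Msx2 and Nkx2-9, 59.6% at Meis1, 56.0% at Irx3, 49.2% at Nkx2-5 and 47.6% at Meis2. Over windows of 300 bases around the start (250 before and 50 after), 40 of the 54 members were matched, with 48 windows. Of these, 32 (66.7%) had a GC content of at least 50% and at least 0.6 of the CpG sites their base composition gives. Of the 32851 windows of all 27025 genes in the promoter table, 33.5% did, and these were not limited to protein-coding genes. Among the 6 genes shown, Irx3, Meis2 and Msx2 met both limits over 300 bases. Meis1, Nkx2-5 and Nkx2-9 did not, with 0.589, 0.466 and 0.571 of the CpG sites expected. The motif searched is CG, which reads the same on both strands, and the count is a description of the sequence, not of binding. Members that passed the filter on low counts and members that did not were alike in this: 21 of 32 windows (65.6%) and 11 of 16 windows (68.8%).

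**Figure D1:**
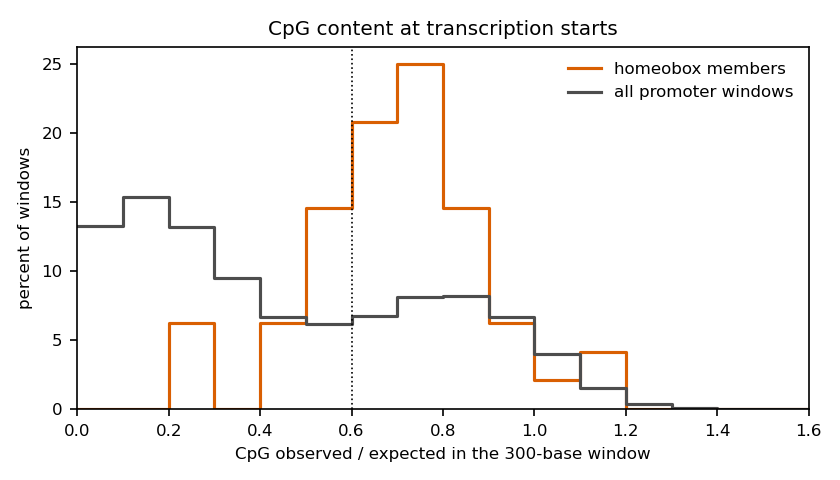
Share of promoter windows (y axis, percent) by the ratio of observed to expected CpG sites in 300 bases around the start (x axis), for the 48 windows of the homeobox members and for all 32851 windows. The members' median ratio was 0.72 against 0.38 for all windows, and the dotted line marks 0.6.

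Depth and agreement of the libraries set what can be seen of genes this low. The libraries held 7553683 to 14426034 counts. Within a group, the pair of libraries differed by only 1.10 to 1.18 times the variance of sampling, against 3.48 to 15.5 times between genotypes, so they were summed and counted as 1 sample. Whether the pair came from separate cultures is not stated. This gave 12 samples of 18017598 to 25160294 counts, 1 for each genotype and state. Pou5f1, which marks pluripotent cells, stood at 774 to 1440 CPM (the counts-per-million value, TMM-scaled) over the 12 samples. Eed itself had 102 to 172 CPM in KO, against 131 to 219 CPM in f/f, a log2 change of −0.35 ± 0.10 (edgeR adjusted p = 0.045). At 3i the fibroblast markers summed to 463 CPM in KO+N-KR, 769 CPM in KO+WT, 510 CPM in KO and 528 CPM in f/f. In embryoid bodies they summed to 58.7 to 144 CPM. Over the 3 states, 6 of 15 tested fibroblast markers were higher in KO+WT than in KO (edgeR adjusted p under 0.05), where 6.76% of all genes were. Against f/f, 9 of 15 were higher in KO+WT, where 3.46% of all genes were. The part of feeder cells in the members' levels was not tested.

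Most members had little RNA in any sample. In 31 of 54 (57.4%) the highest of the 12 samples stayed under 1 CPM, against 38% of all table genes, and Pax4 had no read in any library. A count of 0 allows up to 0.117 to 0.162 CPM, taking 3 reads of a sample's total and counting error alone. Another 13 members peaked between 1 and 5 CPM, and 10 reached 5 CPM or more, among them Six4, Meis1, Meis2, Nkx6-2, Nkx6-3, Irx2, Irx3, Pax6 and Pax8. The filter on low counts kept 32 members (59.3%): all 3 Meis, 5 of 6 Irx, 5 of 6 Six-family, 7 of 13 Nkx, 4 of 8 Lhx, 4 of 9 Pax, 2 of 3 Msx and 2 of 6 Dlx genes. A gene may pass that filter through a single group, so the 32 do not stand for all members.

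The 22 members left untested were Dlx1, Dlx4, Dlx5, Dlx6, Irx6, Lhx1, Lhx4, Lhx5, Lhx8, Msx3, Nkx2-1, Nkx2-2, Nkx2-3, Nkx2-6, Nkx3-2, Nkx6-1, Pax2, Pax3, Pax4, Pax5, Pax9 and Six3. They include well-known regulators of forebrain and thyroid (Nkx2-1), kidney (Pax2), neural crest (Pax3) and pancreas (Nkx6-1).

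Per kilobase of exon, Six4 was the most abundant member, with a mean of 7.00 CPM per kb over the 12 samples. Nkx6-2, a factor of the ventral neural tube, averaged 3.03 CPM per kb. Nkx6-3, a stomach regulator, averaged 1.63 CPM per kb and Irx2 1.07 CPM per kb. The leading genes of the other families were lower, with 0.434 CPM per kb for Dlx3, 0.402 for Meis3, 0.376 for Pax8, 0.333 for Lhx6 and 0.317 for Msx1. The sample with the highest level differed between these genes: EB day 2 of f/f for Six4 (10.4 CPM per kb), 3i of f/f for Nkx6-2 (5.15 CPM per kb) and EB day 1 of f/f for Nkx6-3 (4.87 CPM per kb).

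**Figure D2:**
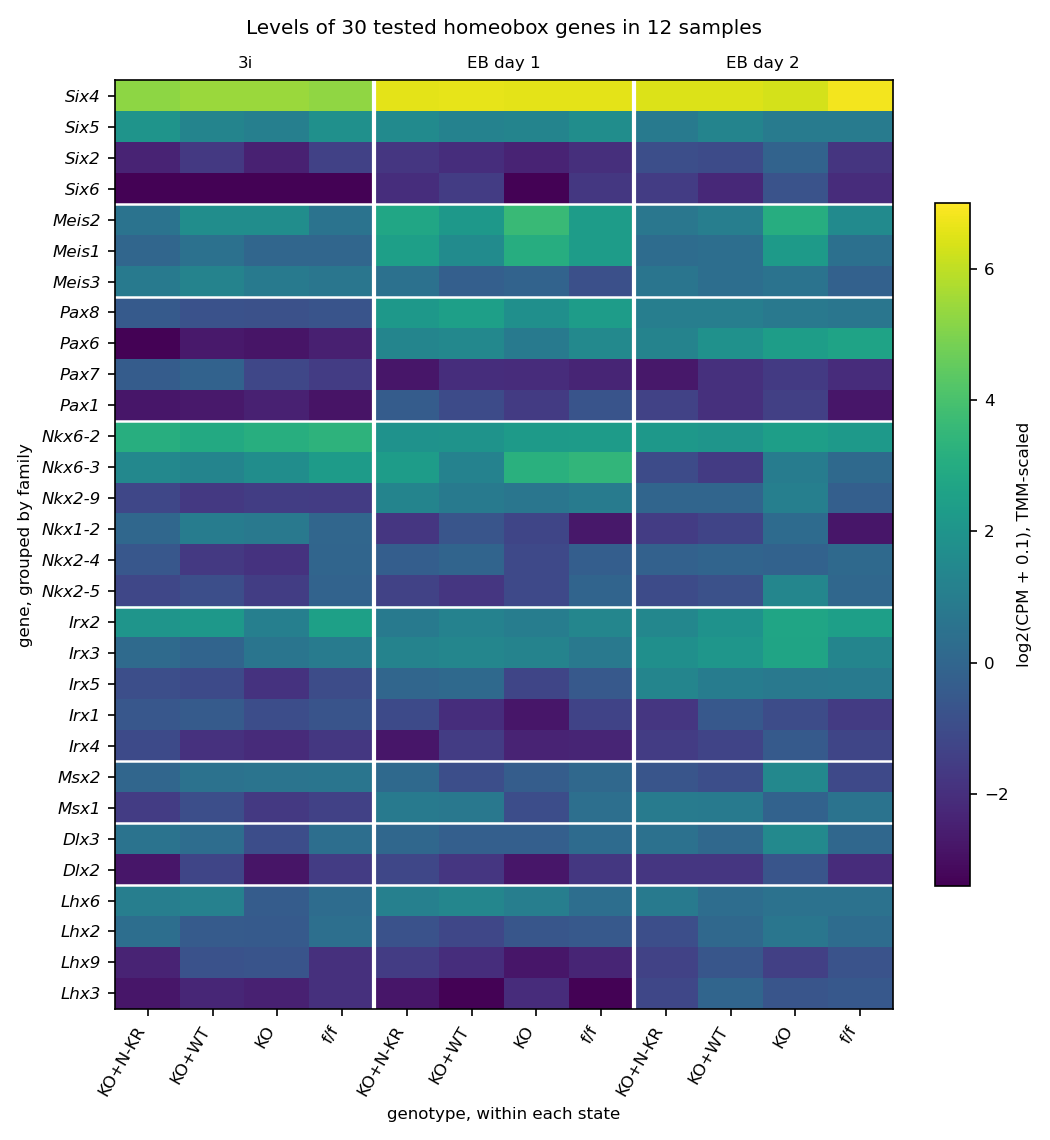
Levels of 30 of the 32 tested homeobox genes (y axis, grouped by family) in the 12 samples (x axis, genotypes within each state), coloured by log2(CPM + 0.1). Six4 is high throughout, Pax6 is near 0 in all 3i samples and at 1.71 to 6.08 CPM in embryoid bodies, and the KO column of EB day 2 is the highest of its state for Meis1 and Meis2.

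Differences were tested with edgeR's quasi-likelihood F-test in a model that adds genotype and state over the 12 samples, with p-values adjusted by Benjamini-Hochberg over 15558 genes and called under 0.05. A difference between states therefore rests on 4 genotypes and one between genotypes on 3 states. It measures how evenly a difference recurs, not the spread between independent lines.

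The change from stem cells to embryoid bodies was the main movement of these genes. Between EB day 1 and 3i, 13 of the 32 tested members rose and 6 fell, so 59.4% changed, against 64.8% of all genes tested (31.2% higher and 33.5% lower). Between EB day 2 and 3i, 16 rose and 6 fell, so 68.8% changed against 62.9% of all genes (32.9% higher and 30% lower). Neither total stands far from that of all genes, and the split leans to higher levels. The median member differed by 0.26 on the log2 scale at EB day 1 and by 0.85 at EB day 2, where the median of all genes tested was −0.02 and 0.02. A low member can pass the filter through a single embryoid body sample where it is high, as Six6 did. This lean and these medians are therefore not separate from the filter and are given as a description only.

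Pax genes moved in both directions. Pax6, which specifies eye and forebrain, had 0 to 2 reads in each 3i sample. It reached 2.40, 2.67, 1.71 and 2.75 CPM at EB day 1 in KO+N-KR, KO+WT, KO and f/f. At EB day 2 it reached 2.31, 3.52, 5.11 and 6.08 CPM in the same order. Every embryoid body sample lay above every 3i sample. The log2 change was 5.61 ± 0.47 (SE) at EB day 1 (edgeR adjusted p = 2.2e-07) and 6.39 ± 0.43 at EB day 2 (edgeR adjusted p = 2.9e-08). Pax8, a thyroid and kidney factor, peaked at EB day 1. It had 4.32, 5.44, 3.38 and 4.99 CPM there in KO+N-KR, KO+WT, KO and f/f, against 0.468 to 0.622 CPM at 3i. It fell again by 1.33 ± 0.16 on the log2 scale from that peak at EB day 2 (edgeR adjusted p = 1.8e-05). Pax1, which acts in the sclerotome, had the same shape in 3 of 4 genotypes and not in KO, which had 5 reads at EB day 1 and 6 at EB day 2. Its log2 changes against 3i were 2.86 ± 0.59 at EB day 1 and 1.65 ± 0.68 at EB day 2. They rest on 1 to 2 reads in each 3i sample, 5 to 14 at EB day 1 and 1 to 6 at EB day 2. Pax7, known from muscle stem cells and neural crest, fell by 2.13 ± 0.52 and 1.75 ± 0.48 on the log2 scale. It too rests on few reads, with 6 to 15 at 3i, 1 to 3 at EB day 1 and 1 to 5 at EB day 2.

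The Six-family held the most abundant gene that rose. Six4 had 37.8 to 43.6 CPM at 3i, 94.2 to 98.8 CPM at EB day 1 and 79.5 to 113 CPM at EB day 2. Its log2 changes against 3i were 1.26 ± 0.09 and 1.18 ± 0.09. Six6, an eye and pituitary factor, had no read in any 3i sample, 0 to 5 reads at EB day 1 and 3 to 11 reads at EB day 2. With so few reads its size is not given here. Six2, which keeps nephron progenitors, also rests on few reads, with 2 to 7 at 3i and 4 to 19 at EB day 2. Its log2 change was 1.41 ± 0.53 (edgeR adjusted p = 0.032), upward in 3 of 4 genotypes and not in f/f. The 19 reads were those of KO, so its call leans on that sample. Six5 fell by 0.54 ± 0.20 at EB day 2 against 3i (edgeR adjusted p = 0.031).

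Among the Nkx genes, Nkx2-9, expressed in the floor of the neural tube, rose by 2.82 ± 0.35 on the log2 scale at EB day 1 and by 2.09 ± 0.37 at EB day 2. Nkx6-3 went up and then down. It had 2.63, 2.38, 3.15 and 4.87 CPM at 3i in KO+N-KR, KO+WT, KO and f/f. At EB day 1 it had 5.00, 2.19, 9.07 and 10.9 CPM and at EB day 2 0.392, 0.235, 1.84 and 1.01 CPM in the same order. Its level at EB day 2 was lower than at EB day 1 by a log2 change of −2.95 ± 0.30 (edgeR adjusted p = 3.4e-06), in 4 of 4 genotypes. Nkx6-2 fell by 1.01 ± 0.12 and 0.90 ± 0.12 on the log2 scale, with 7.41 to 9.82 CPM at 3i and 3.60 to 5.29 CPM in embryoid bodies. Nkx1-2, a gene of the caudal epiblast, fell by 2.31 ± 0.45 and 1.77 ± 0.41.

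Irx3 and Irx5, which lie next to each other and act in heart and neural tissue, both rose. Irx5 had 0.170 to 0.431 CPM at 3i, 0.324 to 1.02 CPM at EB day 1 and 1.66 to 2.45 CPM at EB day 2, a log2 change of 2.49 ± 0.28 by EB day 2 (edgeR adjusted p = 3.8e-06). Irx3 changed by 0.74 ± 0.29 and 1.58 ± 0.27 on the log2 scale. It had 1.05, 2.31 and 3.34 CPM in KO+N-KR and 0.865, 2.48 and 4.10 CPM in KO+WT at 3i, EB day 1 and EB day 2. It had 1.45, 2.31 and 6.23 CPM in KO and 1.81, 1.63 and 2.39 CPM in f/f, so at EB day 1 it was above 3i in 3 of 4 genotypes and not in f/f. Irx1 and Irx2, neighbours on another chromosome, fell by 1.28 ± 0.48 and 0.90 ± 0.29 at EB day 1, where Irx1 had only 1 to 8 reads. Their values at EB day 2 against 3i, −0.56 ± 0.43 and 0.22 ± 0.27, did not pass the test.

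Meis1 and Meis2 peaked at EB day 1, and Msx1, a BMP-responsive gene of limb and face, stayed up. The log2 changes against 3i at EB day 1 were 2.41 ± 0.32 for Meis1, 1.67 ± 0.29 for Meis2 and 2.04 ± 0.30 for Msx1. From that day to EB day 2, Meis1 fell by 1.49 ± 0.29 and Meis2 by 1.06 ± 0.28. Msx1 differed by 0.24 ± 0.23 between these days, which did not pass the test. Meis3 fell by 1.11 ± 0.25 at EB day 1. Of the Lhx genes, Lhx3, a pituitary and motor neuron factor, had 0 to 3 reads at EB day 1 and 7 to 23 reads at EB day 2, a log2 change of 3.47 ± 0.62 (edgeR adjusted p = 0.00035). Neither tested Dlx gene passed any of these tests, nor did either reach an unadjusted p under 0.05.

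EB day 2 also differed from EB day 1 by itself: 11 members were higher and 6 lower, so 53.1% changed against 54.6% of all genes tested (29% higher and 25.6% lower). Those higher included Lhx2, Lhx3, Lhx9, Irx2, Irx3, Irx4, Irx5, Nkx2-5, Pax6 and Six2. Those lower were Meis1, Meis2, Nkx2-9, Nkx6-3, Pax1 and Pax8. Irx4 and Lhx9 rest on few reads, each with 1 to 5 at EB day 1 and at most 14 at EB day 2. The members that fell between 3i and embryoid bodies moved with the fibroblast markers, which also fell, and their part in the result was not tested.

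**Figure D3:**
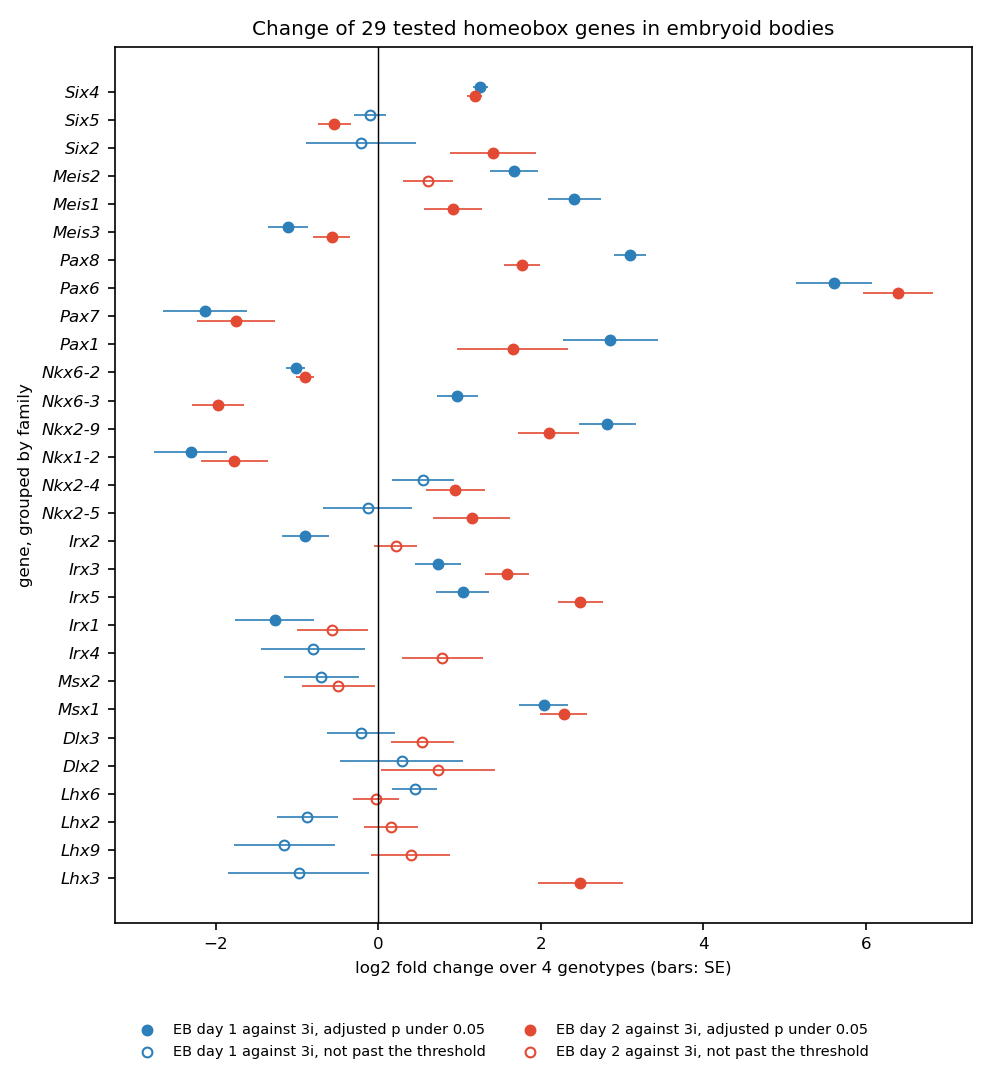
Log2 fold change against 3i (x axis) of 29 of the 32 tested homeobox genes (y axis, grouped by family) at EB day 1 and EB day 2, with bars for the SE and filled points for adjusted p under 0.05. Pax6 lies farthest to the right on both days, Pax7 and Nkx1-2 farthest to the left on EB day 1, and Nkx6-3 changes side between the days; Six6 is left out because it had no read at 3i.

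Other homeobox genes and the Hox genes were set beside the members. Of 65 tested homeobox genes outside these 8 families and outside Hox, 21 rose and 18 fell at EB day 1 and 25 rose and 16 fell at EB day 2. Of 22 tested Hox genes, 2 rose and 11 fell at EB day 1 and 5 rose and 7 fell at EB day 2. The median log2 change at EB day 2 against 3i was 0.17 for the other homeobox genes and −0.19 for the Hox genes, beside 0.85 for the members and 0.02 for all genes. The same filter on low counts let in all these genes, so these medians have the same limit.

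Over the 3 states, 1 of the 32 tested members, Meis2, passed the test between KO and f/f, where 8.8% of all genes did (4.41% higher and 4.39% lower), and it rose. Meis2 had 3.10, 12.5 and 8.24 CPM in KO at 3i, EB day 1 and EB day 2, against 1.37, 5.04 and 2.90 CPM in f/f. KO was above f/f in each of the 3 states, and the log2 change was 1.35 ± 0.32 (edgeR adjusted p = 0.026). The call was lost when EB day 1 or EB day 2 was left out, with an adjusted p of up to 0.21, and the log2 change lay between 1.25 and 1.42 over all settings tried. The count of 1 member became 5 of 31 tested when 3i was left out. It became 10 of 23 tested when the 24 libraries were fitted as separate samples, which takes the spread from library noise. The share of all genes called under these settings is not given here, so these counts say nothing particular to the members. A member that misses the test is not shown to be at its f/f level. In bulk RNA, more cells that transcribe a gene and more RNA per cell cannot be told apart.

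Other members differed without passing. The log2 differences between KO and f/f were 1.71 ± 0.51 for Nkx1-2 (edgeR adjusted p = 0.054), 1.01 ± 0.34 for Meis1 (edgeR adjusted p = 0.081) and −0.98 ± 0.33 for Msx1 (edgeR adjusted p = 0.079). Nkx1-2 had 1.66, 0.324 and 1.08 CPM in KO at 3i, EB day 1 and EB day 2, against 0.925, 0.0509 and 0.0460 CPM in f/f. In f/f embryoid bodies it was therefore under the limit that a count of 0 allows. KO+WT had 1.84, 0.534 and 0.313 CPM of Nkx1-2 and KO+N-KR 0.957, 0.192 and 0.245 CPM, also above f/f in each state. Between KO+WT and f/f its log2 difference was 1.41 ± 0.53 (edgeR adjusted p = 0.12), so a higher level than in f/f was not particular to KO. Six4 differed by −0.12 ± 0.10 and Nkx6-2 by −0.04 ± 0.13. At an unadjusted p under 0.05, 6 members of 32 passed, where 27% of all genes tested did. The median member differed by 0.11, beside 0.0041 for all genes tested.

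Within single states there is 1 sample of each genotype, so differences are given by size alone: at least 2-fold on log2 CPM (prior count 2) where the higher sample has 2 CPM or more, and no p-value. KO and f/f were most apart at EB day 2. There, 8 of the 13 members with 2 CPM were higher in KO and 0 lower, where 3.11% of all such genes passed, 2.91% higher and 0.199% lower. They included Meis1, Meis2, Irx3, Msx2, Dlx3, Nkx2-5 and Nkx2-9. At 3i, 1 of 7 members was higher (Meis2) and 1 lower (Irx2), where 0.962% of all genes passed, and at EB day 1, 1 of 11 was higher (Meis2), where 1.04% passed.

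How many members count at EB day 2 depends on who is let in. Of the 13, 7 reached 2 CPM in f/f, and 3 of these were 2-fold higher in KO, Meis2 and Irx3 among them. The other 6 reached 2 CPM only in KO, and 5 of those were past 2-fold, as a gene that is counted through its high sample tends to be. When members were counted by a mean of 2 CPM over all 12 samples, 4 of 11 passed (Meis1, Meis2 and Irx3 among them), where 2.58% of all such genes passed. With a minimum of 5 CPM 3 of 7 passed, where 1.97% of all such genes did. Whether the difference between KO and f/f depends on the state was not tested, as each genotype has 1 sample in a state.

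Six4 stood at 79.5 CPM in KO and 113 CPM in f/f at EB day 2, a log2 ratio of −0.51 with a 95% interval of −0.60 to −0.42. KO+N-KR had 87.0 CPM and KO+WT 86.5 CPM there, both nearer to KO than to f/f. All intervals of ratios here cover counting error alone.

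Meis1 had 4.75 CPM in KO and 1.24 CPM in f/f at EB day 2, a log2 ratio of 1.86 (1.31 to 2.60). Meis2 had a log2 ratio of 1.48 (1.09 to 1.94). On EB day 1 the genotypes were closer for Meis1, which had 8.42 CPM in KO and 5.04 CPM in f/f. Irx3 had 6.23 CPM in KO and 2.39 CPM in f/f, a log2 ratio of 1.35 (0.91 to 1.87). Its neighbour Irx5 had 1.66 CPM in KO and 1.70 CPM in f/f.

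Another 4 of the 8 rest on few reads. Msx2, a BMP-responsive gene like Msx1, had 2.64 CPM in KO (59 reads) and 0.368 CPM in f/f (8 reads), a log2 ratio of 2.57 (1.77 to 4.12). Dlx3, which the placenta needs, had 2.73 CPM in KO (61 reads) and 0.967 CPM in f/f (21 reads). Nkx2-5, the early heart factor, had 2.46 CPM in KO (55 reads) and 0.967 CPM in f/f (21 reads), and Nkx2-9 had 2.02 CPM in KO (45 reads) and 0.737 CPM in f/f (16 reads). The log2 ratio was 1.42 (0.76 to 2.29) for Dlx3, 1.27 (0.60 to 2.15) for Nkx2-5 and 1.35 (0.60 to 2.37) for Nkx2-9.

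**Figure D4:**
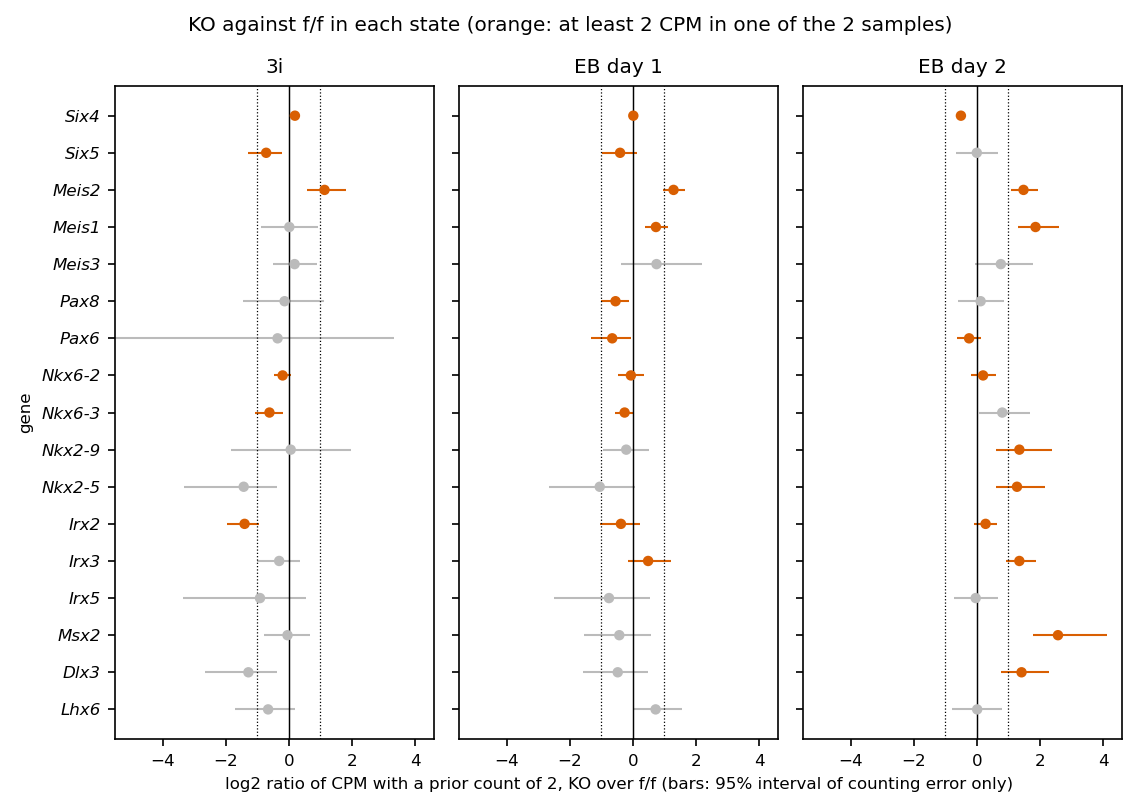
Log2 ratio of KO over f/f (x axis, with bars for the 95% interval of counting error) for 17 of the 19 members that reach 2 CPM in any sample (y axis), in a panel for each state; orange marks genes with at least 2 CPM in KO or f/f in that state, grey the rest, and dotted lines 2-fold. Points gather right of 0 at EB day 2, where 9 of the 11 orange points drawn are positive, and lie on both sides at 3i and EB day 1.

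Marker genes of some other cells and stages also differed between KO and f/f at EB day 2, and those of others were close. The 11 trophoblast markers summed to 311 CPM in KO and 166 CPM in f/f. Of 7 with 2 CPM, 7 were above f/f and 3 past 2-fold, and none of the 11 was at 0 in both. The 18 endoderm markers summed to 539 CPM in KO and 433 CPM in f/f, with 3 of 12 past 2-fold. The 15 mesoderm markers summed to 39.2 CPM in KO and 24.8 CPM in f/f, with 0 of 3 past 2-fold and Msgn1 at 0 in both. The 15 markers of the formative epiblast summed to 1537 CPM in KO and 2722 CPM in f/f. The 15 naive pluripotency markers summed to 1528 CPM in KO and 1310 CPM in f/f, with 12 of 15 above f/f and 4 past 2-fold. The 16 fibroblast markers summed to 91.2 CPM in KO and 66.7 CPM in f/f. The 14 neuroectoderm markers summed to 819 CPM in KO and 800 CPM in f/f, with 0 of 7 past 2-fold. The 8 neural crest markers summed to 40.7 CPM in KO and 39.9 CPM in f/f, with 0 of 3 past 2-fold. The 6 neuron markers summed to 122 CPM in KO and 107 CPM in f/f, with 1 of 3 past 2-fold. The part of these cells and stages in the members' levels was not tested.

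Re-expression of EED in the knockout was compared with KO for both forms. These comparisons use the same KO samples as the one with f/f, so a KO sample that stands apart would move all of them, and their values are given side by side only. Between KO+WT and KO, 1 member rose (Msx1) and 4 fell (Meis1, Meis2 and Nkx6-3 among them), where 15.4% of all genes tested changed (6.76% higher and 8.63% lower). Between KO+N-KR and KO, 1 member rose (Msx1) and 2 fell (Meis2 among them), where 15% changed (6.36% higher and 8.62% lower). The members' shares were 15.6% and 9.38%.

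Six4 differed from KO by −0.02 ± 0.10 on the log2 scale in KO+N-KR and by 0.06 ± 0.10 in KO+WT. Meis2 had 1.39, 6.68 and 1.57 CPM in KO+N-KR and 3.14, 4.37 and 1.99 CPM in KO+WT, against 3.10, 12.5 and 8.24 CPM in KO. At 3i KO+WT and KO overlapped in level, while KO+N-KR was lower. The log2 change was −1.39 ± 0.32 in KO+N-KR (edgeR adjusted p = 0.012) and −1.24 ± 0.33 in KO+WT (edgeR adjusted p = 0.021). Meis1 had 0.909, 5.43 and 1.13 CPM in KO+N-KR and 1.30, 3.01 and 1.17 CPM in KO+WT, against 0.936, 8.42 and 4.75 CPM in KO. It fell by 1.27 ± 0.36 in KO+WT (edgeR adjusted p = 0.030), and its log2 difference in KO+N-KR was −0.98 ± 0.35 (edgeR adjusted p = 0.072). These Meis calls were lost when EB day 1 or EB day 2 was left out, with adjusted p-values up to 0.12 for Meis2 in KO+N-KR, 0.24 for Meis2 in KO+WT and 0.34 for Meis1 in KO+WT. The calls of Meis1 and Meis2 in KO+WT were also lost when only the 2 groups compared were fitted, and that of Meis1 without replicate 1 of each group.

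Msx1 was the member that moved upward. It had 0.239, 1.68 and 1.82 CPM in KO+N-KR and 0.433, 1.60 and 1.68 CPM in KO+WT at 3i, EB day 1 and EB day 2. KO had 0.213, 0.417 and 0.807 CPM (5, 9 and 18 reads), below both at EB day 1 and EB day 2. At 3i KO and KO+N-KR had the same 5 reads and KO+WT 8, so that state does not set them apart. The log2 change was 1.32 ± 0.32 in KO+N-KR (edgeR adjusted p = 0.014) and 1.35 ± 0.32 in KO+WT (edgeR adjusted p = 0.012). Both calls were lost without EB day 1, without EB day 2 and without replicate 1 of each group, with adjusted p-values up to 0.28 and 0.25. That of KO+N-KR was also lost without replicate 2 and when only the 2 groups compared were fitted. Msx1as, the antisense transcript at the same locus, had log2 changes of 1.41 ± 0.32 and 1.54 ± 0.32 in KO+N-KR and KO+WT. The strand setting of the counts is unknown here, so reads of the 2 genes cannot be told apart. Msx2 did not follow Msx1: at EB day 2 it had 0.540 CPM in KO+N-KR and 0.430 CPM in KO+WT, against 2.64 CPM in KO.

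Nkx6-3 was lower in KO+WT than in both KO and f/f. It had 2.38, 2.19 and 0.235 CPM in KO+WT at 3i, EB day 1 and EB day 2, against 3.15, 9.07 and 1.84 CPM in KO and 4.87, 10.9 and 1.01 CPM in f/f. The log2 change was −1.59 ± 0.34 against KO (edgeR adjusted p = 0.0078) and −1.73 ± 0.34 against f/f (edgeR adjusted p = 0.0060). Both were lost when EB day 1 was left out, and that against KO also when only the 2 groups compared were fitted, with adjusted p-values over all settings of up to 0.21 and 0.30. In KO+N-KR the log2 difference from KO was −0.90 ± 0.32 (edgeR adjusted p = 0.075). Nkx6-3 was also the single member called between KO+WT and f/f, where 8.65% of all genes tested changed (3.46% higher and 5.18% lower). Meis2 differed there by 0.11 ± 0.35 (edgeR adjusted p = 0.88), an average over states that went both ways. At 3i it had 3.14 CPM in KO+WT and 1.37 CPM in f/f, past 2-fold, where 1.88% of all genes passed. It had 4.37 and 5.04 CPM at EB day 1 and 1.99 and 2.90 CPM at EB day 2, in the same order.

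**Figure D5:**
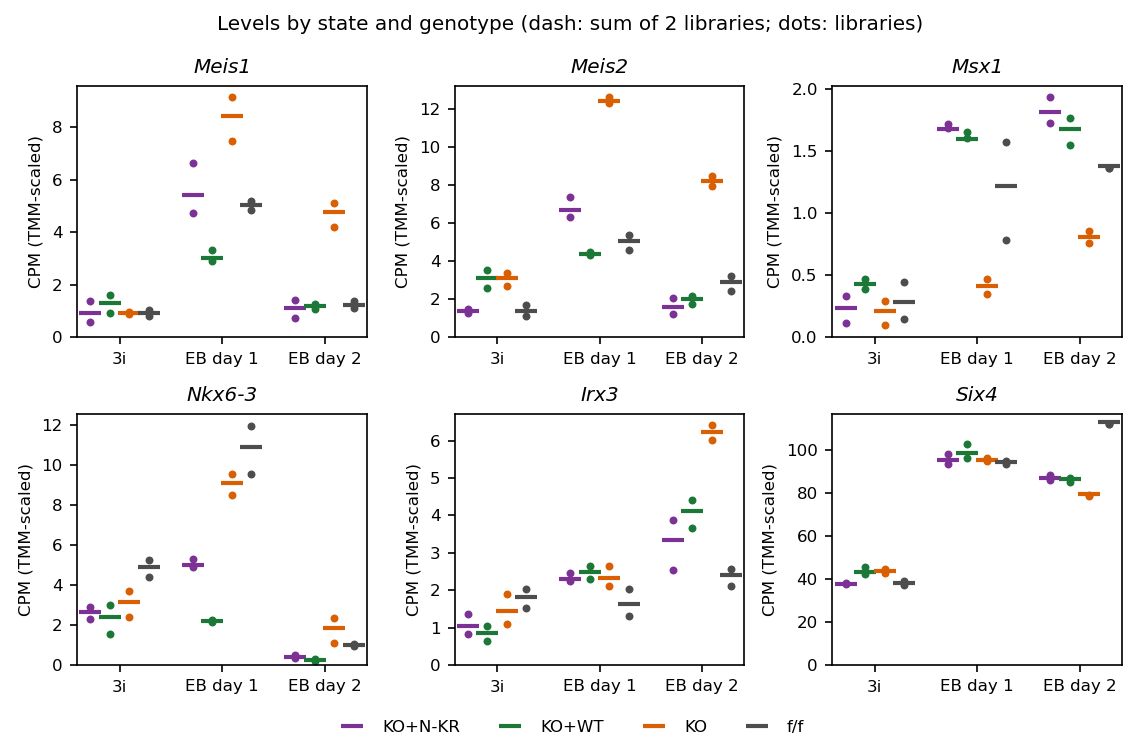
Levels (y axis, CPM) of 6 members by state (x axis) and genotype (colour), with a dash for the sum of 2 libraries and dots for the libraries. KO stands above the other genotypes for Meis1 and Meis2 at EB day 1 and EB day 2 and below them for Msx1 at both days, Nkx6-3 is low in KO+WT at EB day 1 (2.19 CPM), and Six4 changes with state more than with genotype.

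By size within states, both forms differed from KO in the most members at EB day 2, in the KO sample that also enters the comparison with f/f. Between KO+WT and KO, 7 of 14 members were lower and 0 higher, where 3.72% of all such genes passed, 0.861% higher and 2.86% lower. Between KO+N-KR and KO, 9 of 14 were lower and 0 higher, where 4.62% passed, 0.974% higher and 3.65% lower. Those lower in KO+WT included Meis1, Meis2, Msx2, Dlx3, Nkx2-5 and Nkx2-9, and in KO+N-KR these and Irx2 and Pax6. The median log2 ratio of the 14 was −0.96 for KO+WT and −1.11 for KO+N-KR, beside 0.0081 and 0.0072 for all genes. Of the 14, 13 reached 2 CPM in KO, the sample that is high. Counted by a mean of 2 CPM over the 12 samples, 4 of 11 members were lower in KO+WT and 6 of 11 in KO+N-KR, where 3.14% and 3.78% of all such genes passed in either direction.

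The largest of these ratios had few reads behind the low sample. Nkx2-5 had 8 reads in KO+N-KR and 12 in KO+WT, against 55 in KO, with log2 ratios of −2.40 (−3.93 to −1.57) and −2.19 (−3.43 to −1.47). Msx2 had 11 reads in each, against 59 in KO. Pax6 had 2.31 CPM in KO+N-KR and 3.52 CPM in KO+WT, against 5.11 CPM in KO, with log2 ratios of −1.12 (−1.67 to −0.65) and −0.53 (−0.95 to −0.13). Irx2 had 2.55 CPM in KO+N-KR and 3.64 CPM in KO+WT, against 6.54 CPM in KO. Irx3, which was higher in KO than in f/f, fell short of 2-fold here, with 3.34 CPM in KO+N-KR and 4.10 CPM in KO+WT, against 6.23 CPM in KO.

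At the earlier states few members were past 2-fold. At 3i, Irx2 and Lhx6 were higher in KO+WT than in KO, with 4.27 and 2.16 CPM against 2.04 and 0.680 CPM, where 1.26% of all genes passed and 0.783% were higher. The fibroblast markers were also higher in KO+WT there, at 769 CPM against 510 CPM in KO, and their part was not tested. In KO+N-KR, 2 members, Meis2 among them, were lower than in KO at 3i (1.61% of all genes passed, 0.696% higher and 0.915% lower). At EB day 1, KO+WT had lower Meis1, Meis2 and Nkx6-3 than KO (2.57% passed). In KO+N-KR, 1 member was lower than in KO at EB day 1 (2.17% passed).

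No member separated KO+N-KR from KO+WT by test. Between KO+N-KR and KO+WT, 0 of 32 members passed the edgeR test, where 0.546% of all genes tested did. At an unadjusted p under 0.05, 1 member of 32 passed, where 7.28% of all genes tested did. DESeq2 also called 0. Meis2 differed by −0.15 ± 0.35, Msx1 by −0.03 ± 0.28, Six4 by −0.07 ± 0.10 and Nkx6-3 by 0.69 ± 0.36. Tests that miss the threshold do not show that the forms act alike, and only their SEs limit how far apart they may be.

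By size, Meis2 was lower in KO+N-KR than in KO+WT at 3i (1.39 against 3.14 CPM), where 1.04% of all genes passed. The fibroblast markers were lower there too (463 against 769 CPM), and their part was not tested. Nkx6-3 was higher at EB day 1 (5.00 against 2.19 CPM, a log2 ratio of 1.16 with an interval of 0.68 to 1.73), where 0.896% passed. At EB day 2 none of 9 members passed, where 0.46% of all genes did.

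Genes of the same kind outside the 8 families can be read beside these counts. Of 65 tested other homeobox genes, 3 rose and 3 fell between KO and f/f, 5 rose and 2 fell between KO+WT and KO, and 4 rose and 5 fell between KO+N-KR and KO. Of 22 tested Hox genes, 0 passed between KO and f/f (3 at an unadjusted p under 0.05), 1 fell in KO+WT and 2 fell in KO+N-KR against KO. The Hox genes summed to 25.4 CPM in KO and 14.2 CPM in f/f at EB day 2.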

How the data were processed

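RNA was measured in 24 libraries of 12 groups, which were taken from the sample titles. The deposited data are 1 table by the authors, with unnormalized counts of reads for 23284 symbols in 30 columns. The 6 columns that match no library of these samples were not used. Per the submitters' processing notes, STAR 2.5.2b and DESeq2 were used with build mm9. No source used here gives the counting tool, its strand setting or the annotation, so members that overlap an antisense gene are uncertain. No genome of build mm9 was used, so no coordinates are given for the counts. Promoter sequences, exon lengths and gene neighbours came from RefSeq and GENCODE annotations of GRCm38.

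The 2 libraries of a group were summed, because they differed near sampling noise, and the p-values therefore measure only the spread between the 12 sums. Same-numbered libraries of different groups did not deviate together, though their names share a prefix that differs between replicate 1 and replicate 2. What the prefix stands for is not stated. edgeR 4.0.16 (R 4.3.3) was run with TMM scaling, filterByExpr, an additive model of genotype and state, 6 residual degrees of freedom and a threshold of 0.05 after Benjamini-Hochberg adjustment over 15558 genes. The common coefficient of variation was 7.96%. The scripts were tested on simulated counts. Within a state, where each genotype has 1 sample, genes past 2-fold with at least 2 CPM were counted (prior count 2). DESeq2 1.42.0, other scalings, filters and subsets of samples served as alternatives. The members, the gene lists and the tests were chosen with earlier results of these data known. Genes named by rule are members called between genotypes, members called between states with a log2 change of at least 2, members past 2-fold within a state between KO and f/f or between KO+N-KR and KO+WT, the most abundant member per length of each family, and members at 0 in all libraries. Other members named were chosen after their values were seen. Some members are counted in the totals and are not reported here by name.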

Additional observations from a re-analysis of the deposited data

Results flagged for a closer look

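Some members lay above the other genotype in both libraries of one state and below it in both libraries of another, by at least 1.5-fold each way. Each genotype has 1 sample in a state, so the difference between states was not tested for any of them. Between KO and f/f, the log2 ratio of Dlx3 was 1.416 at EB day 2 and −1.283 at 3i, and that of Nkx6-3 was 0.8038 at EB day 2 and −0.615 at 3i. Between KO+WT and KO, the log2 ratio of Dlx3 was 1.247 at 3i and −1.402 at EB day 2, and that of Irx2 was 1.033 at 3i and −0.8316 at EB day 2. Between KO+N-KR and KO, the log2 ratios at 3i and EB day 2 were 1.516 and −1.047 for Dlx3, 0.9129 and −1.328 for Irx2, and 0.8198 and −1.598 for Lhx2. In the same comparison Nkx2-9 stood at 0.5951 at EB day 1 and at −1.112 at EB day 2. The values for Dlx3 and Irx2 come from comparisons that share the KO samples and are not separate observations. Between KO+N-KR and KO+WT, the log2 ratio of Meis2 was 0.6016 at EB day 1 and −1.125 at 3i.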

How the results depend on the processing

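Under other settings, 371 values were recomputed for members called between genotypes, or between states with a log2 change of at least 2. Of these, 345 kept their direction and side of the threshold, 26 kept their direction only, and 0 reversed. Between states only Six6 at EB day 1 against 3i lost its call, in 3 of 7 settings. All other losses fell on calls between genotypes, which were the less steady ones. The counts of members called moved more. They are given without the share of all genes called under each setting, so they show how the count depends on the setting and nothing particular to the members. Fitting the 24 libraries as separate samples treats library noise as the spread and gave 10 members for KO against f/f, 9 for KO+WT against KO, 12 for KO+N-KR against KO, 1 for KO+N-KR against KO+WT and 7 for KO+WT against f/f. The replicate block gave these same counts (10, 9, 12, 1 and 7). Deviations of same-numbered libraries correlated by −0.046 to 0.035, so no shift shared by the libraries of a replicate number was seen. Leaving out 3i gave 5 for KO against f/f and 7 for KO+N-KR against KO. Leaving out EB day 1 gave 0 for KO against f/f, 0 for KO+WT against KO, 1 for KO+N-KR against KO and 0 for KO+WT against f/f. Leaving out EB day 2 gave 0 for KO against f/f, 2 for KO+WT against KO and 1 for KO+N-KR against KO. Fitting only the 2 groups compared gave 2 for KO+WT against KO and 2 for KO+WT against f/f. For KO against f/f, library totals gave 2, no filter 3 and DESeq2 2. For EB day 2 against EB day 1, DESeq2 gave 10 and leaving out KO gave 10. With 1 library per group (either replicate left out), the counts were 2 to 3 for KO against f/f, 3 to 6 for KO+WT against KO, 1 to 2 for KO+WT against f/f, 14 to 17 for EB day 2 against 3i and 10 to 10 for EB day 2 against EB day 1. Settings with fewer samples have less power, and for the rest the cause was not tested.

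Size counts followed their limits. Shares of all genes under these other limits are given above only for some counts at EB day 2, so the rest describe the limit and not the members. With either replicate left out they ran, for KO against f/f, from 1 to 2 at 3i and 1 to 3 at EB day 1, for KO+WT against KO, from 1 to 1 at 3i, for KO+N-KR against KO, from 1 to 4 at 3i and 1 to 2 at EB day 1, and for KO+N-KR against KO+WT, from 0 to 2 at 3i and 0 to 1 at EB day 2. A minimum of 5 CPM gave, for KO against f/f, 1 at 3i and 3 at EB day 2, for KO+WT against KO, 0 at 3i and 2 at EB day 2, for KO+N-KR against KO, 0 at 3i and 4 at EB day 2, and for KO+N-KR against KO+WT, 0 at 3i and 0 at EB day 1. A limit of 1.5-fold gave, for KO against f/f, 4 at 3i and 3 at EB day 1, for KO+WT against KO, 6 at EB day 1, for KO+N-KR against KO, 4 at 3i and 5 at EB day 1, and for KO+N-KR against KO+WT, 3, 4 and 1 at 3i, EB day 1 and EB day 2. A mean of 2 CPM over the 12 samples, chosen after seeing the data, gave 4 at EB day 2 for KO against f/f, and for KO+WT against KO 1 at 3i and 4 at EB day 2.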
